A study of Drosophila melanogaster with 3 samples.

Results

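The genes described here encode structural proteins of the insect cuticle, and they held few binding sites of the embryonic repressor Knirps. They are the 95 protein-coding genes of the fruit fly (Drosophila melanogaster) whose symbol starts with Cpr and a digit or with Twdl, among 13945 protein-coding genes on 6 chromosome arms. There are 70 Cpr genes and 25 Twdl genes. Membership was set by gene symbol alone, but the group was chosen with earlier results of these data known. A gene was counted as holding a site when the summit of a peak, its highest point, lay in its territory, which is the gene body with 5 kb on either side.

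The cuticle is the layered outer coat that the epidermis secretes, made of chitin fibres bound by proteins. Most Cpr proteins carry the Rebers and Riddiford consensus, a stretch that binds chitin, and the Tweedle proteins encoded by Twdl genes are a separate family of cuticle proteins that affect body shape. In the embryo both families are known mainly from the late stages, when the epidermis lays down the larval cuticle. Knirps is a zinc-finger protein of the nuclear receptor family, best known for repressing other segmentation genes in the early embryo and for roles in the tracheal system later.

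Binding was mapped by chromatin immunoprecipitation and sequencing (ChIP-seq) with, per the samples' descriptions, an antibody against green fluorescent protein (GFP), although the antibody field of the labels reads kni. Which of these holds decides whether untagged Knirps could also be pulled down. The strain, kni-GFP, is 1 transgenic line that stably makes Knirps with GFP at its C-terminal end, and the state of the untagged kni gene was not given in the sources used here. Whole embryos of both sexes, 0 to 14 h old, were taken as 3 biological replicates of 1 group, with no second condition. Embryos of all these ages and all their tissues were pooled, so a site bound in fewer cells and a site bound more weakly cannot be told apart.

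The authors deposited 4 lists of 30000 peaks each on genome build dm6, 1 for each replicate and 1 for the pooled replicates, and an optimal list that is the strongest 23.8% of the pooled one. Peaks in the optimal list had a median signal value of 292, the lowest 188 and the highest 5038. The signal value is the authors' measure of a peak's strength over the control, and it was used only to rank peaks within a list, rank 1 being the strongest. From each replicate list the same share, its strongest 23.8%, was used, and these are called the replicate's top peaks. The number of reads is unknown, and the intervals below are Wilson 95% intervals that cover counting error over genes only. They treat genes as independent, although many members are neighbours with overlapping territories, so they are too narrow.

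An optimal summit lay in the territory of 13 of the 95 genes, or 13.7% (8.17% to 22.0%), where 45.4% of all protein-coding genes had one. Among the Cpr genes, which encode the chitin-binding proteins, 12 of 70 had a summit (17.1%, interval 10.1% to 27.6%). Among the Tweedle genes 1 of 25 did (4.0%, interval 0.710% to 19.5%). The replicates gave nearly the same counts, 11 genes in replicate 1, 13 in replicate 2 and 13 in replicate 3. All protein-coding genes gave 47.3% in replicate 1, 45.4% in replicate 2 and 45.6% in replicate 3. The members' mean was therefore 13.0% ± 1.22 and that of all genes 46.1% ± 1.02 (SD, n = 3), and the 2 ranges do not overlap.

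The cuticle genes are short, with a median length of 1088 bp (457 to 18590) against 2166 bp for all protein-coding genes, so their territories are smaller. Other genes were therefore weighted so that 10 classes of gene length held the same shares as the members. In that comparison 38.5% had an optimal summit, which would be 36.6 genes of 95 in place of 13. The members were lower by 24.9 percentage points in the optimal list. In the replicates the differences were -28.5, -24.8 and -25.1 percentage points, a mean of -26.1 ± 2.08 (SD, n = 3), so every replicate had the same direction. The size depends on how genes are counted, since 68 of the members share 15 loci. With the first member on the arm standing for each locus, 9 of 42 had a summit, and over the 27 loci of 1 member the difference was -10.2 points. It was -15.1 points with the stronger 50% of the optimal list, -16.5 with 2 kb on either side, -8.06 with each summit given to the nearest start site alone and -5.82 in the gene body. No chance test was made, because the members were chosen with earlier results of these data known.

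The replicates largely placed summits at the same genes. A summit among the top peaks of all 3 replicates was found at 10 genes, each of which also had an optimal summit, and 80 genes had none in any replicate. Of the 82 genes with no optimal summit, 2 had a summit among the top peaks of at least 1 replicate. These were Cpr66D, in replicates 2 and 3, and Cpr67Fb, in replicate 3. Cpr66D had the strongest pooled summit of the genes outside the optimal list, with a signal value of 185 at rank 7311. Its best ranks were 13146, 6342 and 5510 in replicates 1 to 3, so replicate 1 was the low one. The next were Cpr49Ae and Cpr49Af, which shared a summit at rank 8204 (signal 170), and Cpr78Ca and Cpr78Cb, which shared one at rank 9030 (signal 159).

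**Figure D1:**
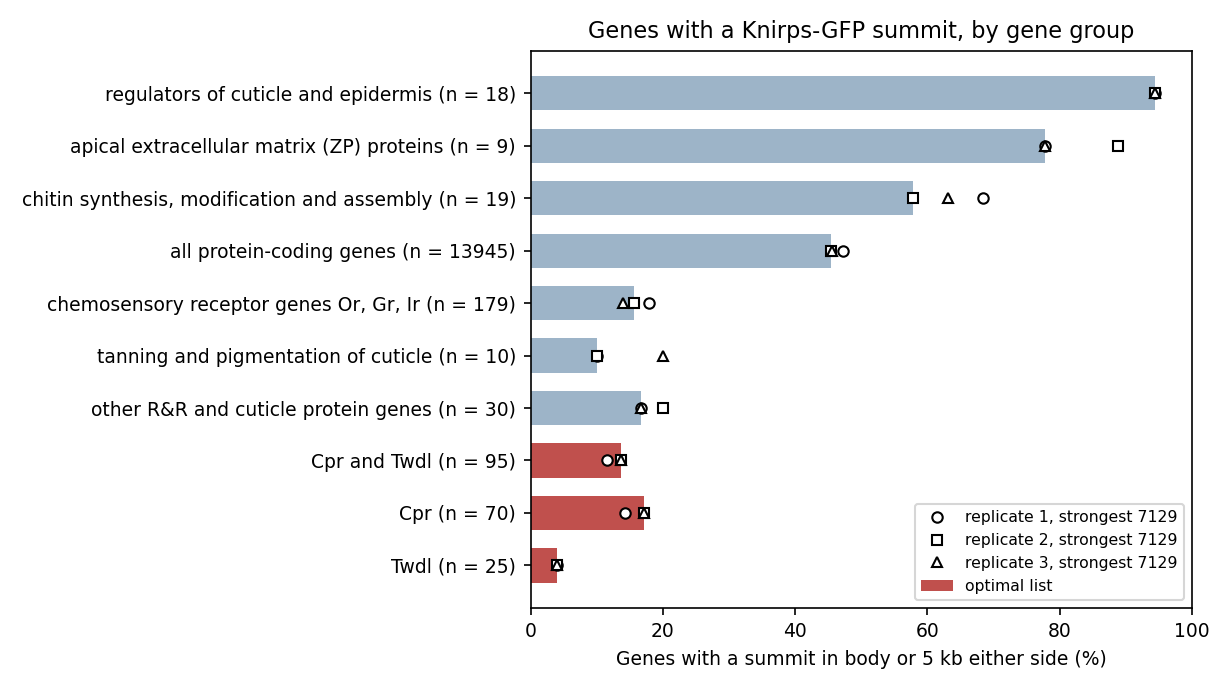
Share of genes with a summit in the gene body or 5 kb either side, by gene group. Bars give the optimal list (red for Cpr and Twdl genes, blue for other groups) and open symbols the top peaks of each replicate (its strongest 23.8%). The Cpr and Twdl genes lie at 13.7% and all protein-coding genes at 45.4%.

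The 13 genes shared 16 distinct optimal summits, and many of these stood at the start of another gene. Of the 16, 10 lay within 500 bp of a start site (62.5%, against 37.0% of all optimal summits), and 1 of those 10 was at the start of a cuticle gene. Summits whose peak intervals overlap, as near Cpr67B, were counted separately. Another 5 were intergenic and 1 was in an intron of CG11905. None was inside the body of a cuticle gene, and 5 had a cuticle gene as the gene of the nearest start site. Their median signal value was 258 (190.7 to 1495), with 7 in the stronger 50% of the optimal list and 6 in its weakest 25%. All 3 replicates recovered 9 of the 16 within 100 bp among their top peaks (56.3%, against 52.1% of all optimal peaks).

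The strongest summit near a cuticle gene had a signal value of 1495 and ranked 45 in the pooled list and 43, 80 and 38 in replicates 1 to 3. It was at chr3L:21304377-21304765, 84 bp downstream of the start of CG11309, and 3994 bp downstream of the start of Cpr78Cc. Cpr67B, another Cpr gene, had 4 optimal summits, more than any other member, and all 4 were at the starts of its neighbours. Of those, 2 lay at Cpsf5, which encodes a factor for the processing of mRNA 3' ends, and 2 at eIF4E1, which encodes the protein that binds the mRNA cap in translation. The peak intervals of the 2 summits at each gene overlap. The weaker one ranked 23643, 11781 and 9751 in replicates 1 to 3 at Cpsf5, and 10843, 14744 and 4267 at eIF4E1. The strongest of the 4, at chr3L:9410820-9411099, had a signal value of 664 and ranks of 574, 774 and 580 in the replicates, so the replicates placed it alike.

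Other summits were intergenic or in an intron. The strongest intergenic one lay 2787 bp downstream of the start of Cpr35B (chr2L:14422312-14422498, signal 450), with ranks of 1697, 1126 and 2477. A summit at chr3L:19516625-19516846 (signal 404) fell in the territories of Cpr76Ba, Cpr76Bb and Cpr76Bc together and ranked 1176, 2134 and 3751. It was 1611 bp downstream of the start of Cpr76Ba and 2928 and 4224 bp upstream of those of Cpr76Bb and Cpr76Bc. It was also the 1 pooled summit in the whole locus of these genes and Cpr76Bd. The summit in the intron of CG11905 (signal 386) ranked 1970, 1838 and 2446 and was 8496 bp downstream of the nearest start site of Cpr73D, the longest of the members at 18590 bp. Cpr23B had an intergenic summit 4384 bp upstream (signal 298, ranks 3744, 3617 and 3975), nearest to Duox, which encodes an enzyme that makes hydrogen peroxide. All of these were among the top peaks of all 3 replicates.

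The genome sequence at the 5 strongest of the summits on 2L and 3L that lie outside untranslated regions is shown so that the sites can be compared letter by letter. Each runs from 50 bases before the summit to 50 after it, from the forward strand of the Release 6 genome (RefSeq), which has the arm names and coordinates of dm6. The windows are chr3L:9410899-9410999 for Cpr67B, chr2L:14422352-14422452 for Cpr35B, chr3L:19516671-19516771 for Cpr76B, chr3L:16934403-16934503 for Cpr73D and chr2L:2833977-2834077 for Cpr23B. Capitals mark any of 6 words searched on both strands, AGAGCA (a simplified form of the Knirps preference), AGGTCA (nuclear receptor site), GAGAG (GAGA factor), CAGGTA (Zelda), AACNGGTT (Grainy head) and TATCGATA (DREF).
Cpr67B: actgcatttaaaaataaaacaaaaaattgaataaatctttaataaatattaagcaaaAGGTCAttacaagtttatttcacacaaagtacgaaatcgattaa
Cpr35B: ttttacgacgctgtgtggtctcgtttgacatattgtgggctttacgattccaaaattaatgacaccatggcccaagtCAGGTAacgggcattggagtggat
Cpr76B: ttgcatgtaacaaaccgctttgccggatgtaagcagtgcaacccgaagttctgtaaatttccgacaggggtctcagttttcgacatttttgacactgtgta
Cpr73D: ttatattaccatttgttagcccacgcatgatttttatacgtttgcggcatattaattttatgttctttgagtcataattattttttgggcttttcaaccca
Cpr23B: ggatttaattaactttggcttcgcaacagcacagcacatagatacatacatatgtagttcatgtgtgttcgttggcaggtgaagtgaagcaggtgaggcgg

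Of these 5 windows, 1 held AGGTCA and 1 held CAGGTA, and AGAGCA was in none. Within 100 bases of the summit, AGAGCA was present at 1 of the 16 summits (6.25%, against 14.1% of all optimal summits) and AGGTCA at 1 (6.25% against 3.86%). GAGAG was present at 1 (6.25% against 37.1%), CAGGTA at 1 (6.25% against 7.71%), AACNGGTT at 2 (12.5% against 5.19%) and TATCGATA at 0 (against 1.35%). With 16 windows these shares rest on 0 to 2 sites each, and a missing word says only that the letters are not in the window.

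The other summits were weaker and less alike between replicates. The summit of Cpr66Cb (signal 258, at the start of CG7083) ranked 6910, 3707 and 5031, all among the top peaks. That of Cpr47Eg (signal 208), at the start of Vhl, which encodes a subunit of a ubiquitin ligase, ranked 8299 and 3414 and had no match within 100 bp in replicate 3. Cpr100A had an intergenic summit 2144 bp upstream of its start (signal 206) that ranked 5083, 8773 and 6614. Cpr51A had one 1466 bp upstream (signal 198) that ranked 7691 in replicate 1 and had no match within 100 bp in replicates 2 and 3. Elsewhere in its territory, the best summit ranked 4752 in replicate 2, among the top peaks, and 9058 in replicate 3. The weaker summit of Cpr23B, at the start of CG2975 (signal 243), ranked 7472, 4953 and 4886. That of Cpr73D, at the start of CG11905 (signal 191), had no match in replicate 1 and ranked 7431 and 4683 in the others. Except at Cpr66Cb, each of these summits fell outside the top peaks or had no match in at least 1 replicate.

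**Figure D2:**
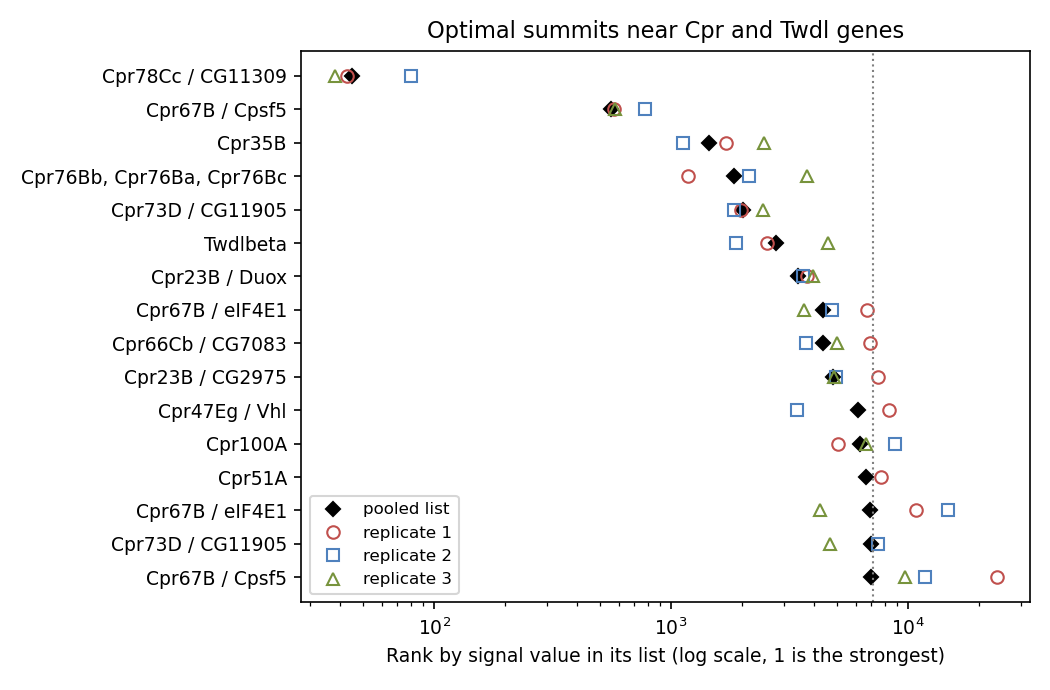
Rank by signal value of the 16 optimal summits near Cpr and Twdl genes (log scale, 1 is the strongest), in the pooled list (black diamonds) and in each replicate (open symbols). The labels give the member and, after a slash, another gene whose start site is nearest. The dotted line is the last rank of the optimal list. The summit near Cpr78Cc ranks 38 to 80 in the replicates, and the weaker summits are spread on either side of the line.

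Binding at the genes' own start sites was rarer still. A summit lay within 500 bp of an own start site at 1 of the 95 genes (1.05%), against 18.4% of all protein-coding genes and 11.9% of genes of like length, which would be 11.3 of 95. That gene was Twdlbeta, a Tweedle gene, with a summit 174 bp upstream of its start at chr2R:11863166-11863685 (signal 331). The summit ranked 2548, 1887 and 4611 in replicates 1 to 3, among the top peaks of each. Inside the gene bodies the count was 0 of 95, against 14.7% of all protein-coding genes and 5.82% of genes of like length.

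The distance from an own start site to the nearest optimal summit had a median of 17987 bp over the members (quartiles 9875.5 and 33794.5 bp) and of 7840 bp over all genes (quartiles 1696 and 20953 bp). Over 10 kb away were 68 members (71.6%), against 44.0% of all genes. Within 2000 bp there was a summit for 5 members (5.26%, against 19.8% of genes of like length) and within 10000 bp for 27 (28.4% against 51.6%). Within 50000 bp the shares were 85.3% and 88.1%. At each of these distances the members' share was the lower one, and the shares were closest at 50000 bp. The Tweedle genes were the farther family, with a median of 40588 bp against 15763.5 bp for the Cpr genes, and the farthest member was TwdlS at 77718 bp. The 5 kb limit fell between Cpr76Bc (4224 bp from the gene body to its nearest summit) and Cpr64Ad (5074 bp), with Cpr62Ba (5142 bp) and Cpr30F (5628 bp) also just outside.

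**Figure D3:**
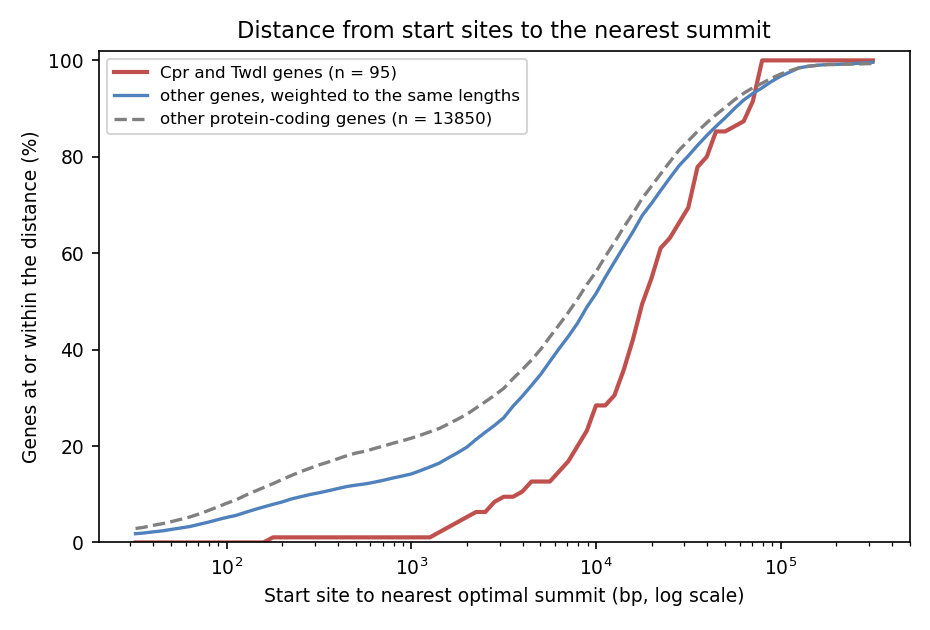
Share of genes with an optimal summit at or within a distance of an own start site (bp, log scale), for the 95 Cpr and Twdl genes, for all other protein-coding genes and for those genes weighted to the same lengths. The red curve leaves 0 at 174 bp and is at 1.05% at 500 bp, where genes of like length reach 11.9%, and approaches the others near 50000 bp.

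Weaker peaks were less scarce at the cuticle genes. In the pooled list of 30000 peaks, 45 of 95 genes had a summit in the territory (47.4%), namely 37 of 70 Cpr and 8 of 25 Twdl genes. In the same list 69.6% of all protein-coding genes and 63.4% of genes of like length had one. The full replicate lists gave 51, 50 and 44 genes, beside 77.5%, 73.8% and 70.9% of all protein-coding genes. The members' territories cover 0.551% of the 6 arms and held 0.224% of the optimal summits, 0.305% of the pooled summits below them down to rank 15000 and 0.453% of those of ranks 15001 to 30000. The share thus came nearer to the covered length as the peaks became weaker. No pooled summit was found at 50 members, of which the first in alphabetical order are Cpr12A and Cpr30B.

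Most of the genes stand in tandem clusters, and summits were scarcest there. Members less than 20 kb apart were joined into 42 loci, of which 11 had an optimal summit. The 13 loci with 3 or more genes hold 64 of the 95 members. Together they had 3 optimal summits in 343 kb, or 0.873 per 100 kb, and a mean of 0.776 ± 0.168 over the replicates (SD, n = 3). The 50 kb on each side of those loci had 8.08 per 100 kb, the 6 arms 5.32 and the territories of all protein-coding genes 5.90. The 27 loci with 1 member had 13 summits, or 3.93 per 100 kb, with 7.04 in their flanks. The counts of summits are small, and the difference between clustered and single genes was not tested.

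Cluster by cluster, 10 of the 13 held no optimal summit. The 3 that did were Cpr47Ea to Cpr47Eg, Cpr76Ba to Cpr76Bd and Cpr78Ca to Cpr78Cc, with 1 summit each. The largest Cpr cluster, the 8 genes from Cpr49Aa to Cpr49Ah, had 0 optimal summits and 1 pooled summit in 48.5 kb. The 7 genes from Cpr65Au to Cpr65Az had 0 optimal and 9 pooled summits, the best at rank 12560. The 4 genes from Cpr64Aa to Cpr64Ad and the 3 from Cpr67Fa1 to Cpr67Fb also had 0, beside flanks with 19 and 16 optimal summits. Those were the clusters with the densest surroundings. Cpr62Ba to Cpr62Bc and Cpr65Ea to Cpr65Ec had 0 optimal summits, with 6 and 4 in their flanks. Cpr72Ea to Cpr72Ec had no pooled summit either and stood in a stretch of 206611 bp between optimal summits. For comparison, the median gap between neighbouring optimal summits was 3954 bp, and 224 of 7123 gaps were over 100 kb.

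**Figure D4:**
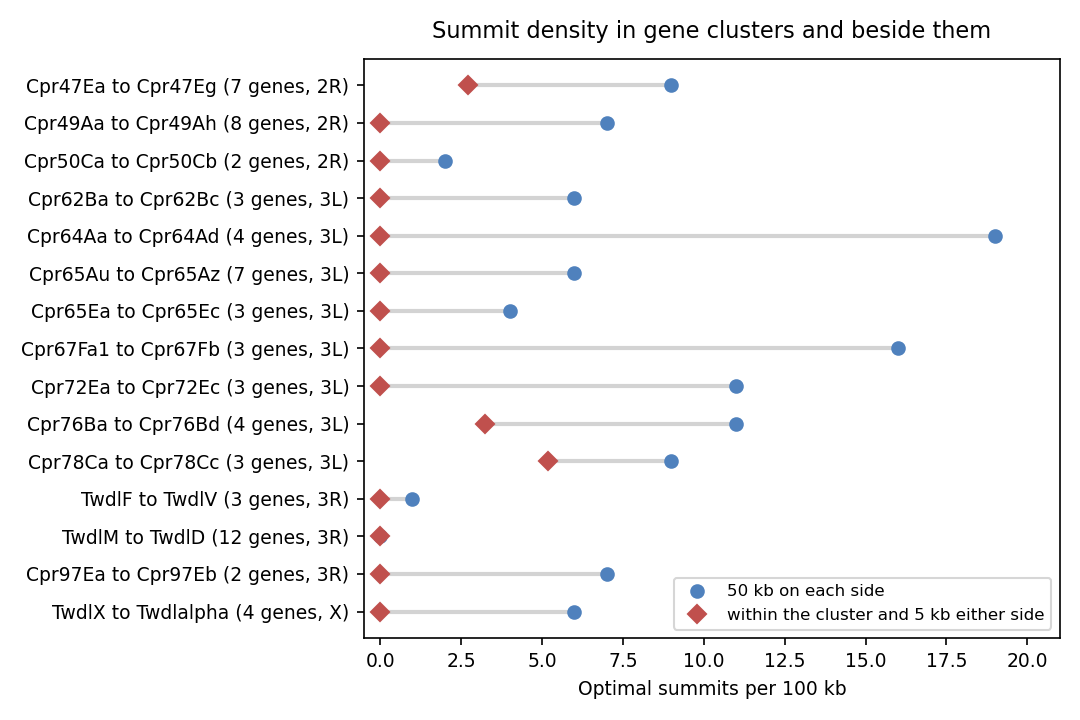
Optimal summits per 100 kb within each locus of 2 or more genes and 5 kb either side (red diamonds) and in the 50 kb on each side of it (blue circles), with the number of genes and the arm in the label. The 15 loci lie between 0 and 5.18 per 100 kb, and 12 of them are at 0. The flanks of Cpr64Aa to Cpr64Ad reach 19.

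The Tweedle clusters had few peaks of any strength. The 12 genes from TwdlM to TwdlD, among them TwdlD, whose mutation is known to make the body short and stout, lie on 3R between 26619118 and 26641054. Their locus had 0 optimal summits, 1 summit among the 30000 pooled peaks (rank 27909, signal 50.3) and 0 among the 30000 of each replicate. At the genome's pooled density of 22.4 summits per 100 kb, its 31.9 kb with flanks would hold several. The nearest optimal summits were 61301 bp to the left and 73352 bp to the right, and the gap of 156589 bp between them also holds TwdlQ. The 50 kb on each side had no optimal summit either, so the low count was not limited to the 12 genes of the cluster. TwdlF, TwdlG and TwdlV, also on 3R, had no pooled summit and lay in a gap of 132761 bp, and of the replicate lists that of replicate 2 alone had summits there, 2 weak ones at TwdlF. TwdlX to Twdlalpha on the X had 2 pooled summits, the better at rank 13855, and 6 optimal summits in the flanks.

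**Figure D5:**
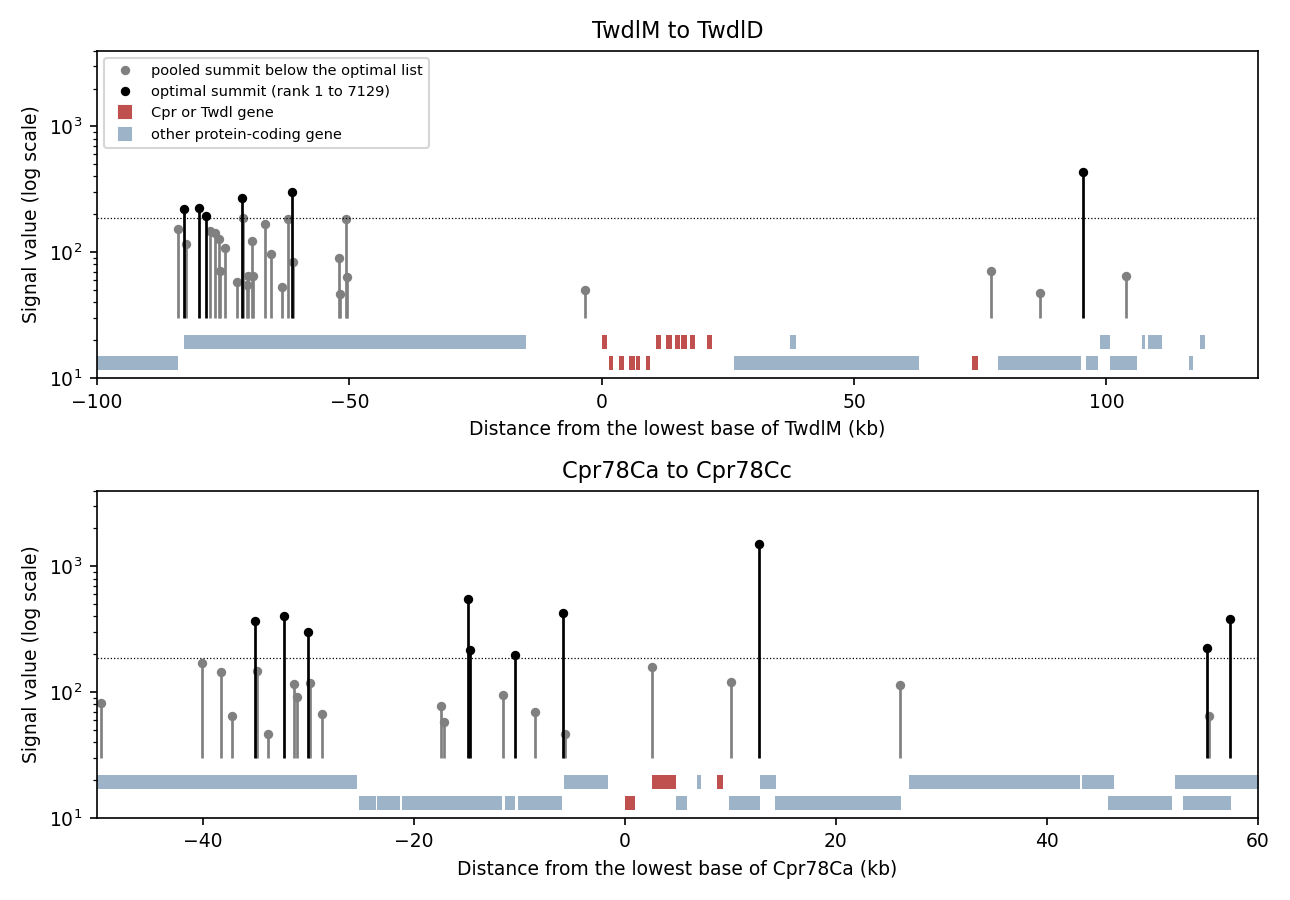
Maps of the TwdlM to TwdlD cluster (top) and the Cpr78Ca to Cpr78Cc cluster (bottom), with distance in kb from the lowest base of the first gene. Blocks are genes, red for Cpr or Twdl and blue for other protein-coding genes, the upper row on the forward and the lower row on the reverse strand. Stems give the signal value (log scale) of optimal summits (black) and of weaker pooled summits (grey), and the dotted line is the lowest optimal signal value, 188. The TwdlM to TwdlD cluster has 1 grey stem beside it, and the strongest stem of the lower map, 1495, stands beyond Cpr78Cc.

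Repeated sequence can hide peaks where reads cannot be placed, and tandem gene families hold copies. No source used here says how the authors treated reads with several matches. The share of 31-base words that occur a single time on the 6 arms was 97.2% in the members' territories, above the 92.4% in the territories of all protein-coding genes. It was 97.3% for Cpr and 96.8% for Twdl genes. The lowest clusters were Cpr65Au to Cpr65Az at 87.0% and TwdlF to TwdlV at 87.6%, and TwdlM to TwdlD had 94.0%. Single genes were lower, with 60.8% for Cpr65Ax1 and 62.1% for Cpr65Ax2. Neither of these had an optimal summit, which is uncertain where reads cannot be placed, and both had weaker summits in the pooled list and in every full replicate list. The next lowest gene, Cpr73D at 68.2%, had 2 optimal and 10 pooled summits in its territory. Both optimal summits lay outside its body, the nearer one 3586 bp away, and the share of such words at the summits was not computed.

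The members also had fewer non-member neighbours. The median number of other non-member genes that start in the territory was 1 for the members and 3 for all protein-coding genes. With members counted as neighbours too, it was 3 for both (means 2.82 and 2.94), so the territories were not poor in genes. With no such neighbour, 4 of 34 members had an optimal summit (11.8%) and 27.3% of other genes. With 3 or more neighbours, 7 of 25 members (28.0%) and 52.2% of other genes did. With 1 neighbour 2 of 18 members did (11.1% against 35.9%), and with 2 neighbours 0 of 18 (against 43.7%). The members were lower in each of these 4 classes. Only 1 start site is annotated for 87 of the 95 members (91.6%), against 73.5% of all genes. Among genes under 2 kb with 1 start site, 10 of 75 members had a summit (13.3%), against 34.6% of other genes. By arm, 2 of 6 members on 2L had a summit, 3 of 22 on 2R, 7 of 35 on 3L, 1 of 24 on 3R and 0 of 8 on the X, and other genes had 40.7% to 48.5% on these arms.

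The start regions of the cuticle genes shared a TATA box far more often than other genes. The TATA box is the promoter element bound by the TATA-binding protein, and here it was searched for as TATAAA on the coding strand, with its first base 45 to 15 bases before the annotated start. It was present at 54 of 95 members (56.8%), at 39 of 70 Cpr and 15 of 25 Twdl genes, and at 8.81% of all protein-coding genes. This search was added after the data were seen. Among other genes, those with TATAAA had a summit within 500 bp of an own start site in 7.57% of cases and those without in 19.6%. In the territory the shares were 27.5% and 47.3%. Among the members, 8 of 54 with TATAAA (14.8%) and 5 of 41 without (12.2%) had a summit in the territory, and both shares were under those of other genes of the same class.

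The 60 bases before the start of 8 of these genes are printed to show the element in clusters with no optimal summit. Only genes with the element were picked, and some other members of the TwdlM to TwdlD and Cpr65Au to Cpr65Az clusters lack it. They are from the same genome, on the coding strand, with TATAAA in capitals. The windows are chr3R:26619058-26619117 for TwdlM, chr3R:26631809-26631868 for TwdlN and chr3R:26639965-26640024 for TwdlD, all on the forward strand, and chr3R:26621365-26621424 on the reverse strand for TwdlP, from the cluster that had no replicate summit. From the cluster with no pooled summit come chr3L:16362543-16362602 for Cpr72Ea and chr3L:16364839-16364898 for Cpr72Eb, on the forward strand. The windows of Cpr65Ax1 and Cpr65Ax2, which hold the same letters offset by 1 base, are chr3L:6147988-6148047 and chr3L:6150858-6150917, on the reverse strand.
TwdlM: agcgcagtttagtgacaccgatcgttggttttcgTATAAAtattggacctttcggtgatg
TwdlN: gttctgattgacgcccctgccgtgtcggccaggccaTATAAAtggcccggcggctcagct
TwdlD: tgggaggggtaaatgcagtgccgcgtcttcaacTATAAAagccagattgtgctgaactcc
TwdlP: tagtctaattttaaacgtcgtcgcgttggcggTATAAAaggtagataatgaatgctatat
Cpr72Ea: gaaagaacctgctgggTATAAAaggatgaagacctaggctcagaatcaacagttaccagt
Cpr72Eb: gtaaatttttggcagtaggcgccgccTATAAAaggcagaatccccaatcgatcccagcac
Cpr65Ax1: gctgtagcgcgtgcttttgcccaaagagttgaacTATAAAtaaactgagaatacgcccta
Cpr65Ax2: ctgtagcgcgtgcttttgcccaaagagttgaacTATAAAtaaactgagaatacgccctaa

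In these sequences TATAAA began 24 to 28 bases before the start of TwdlM, TwdlN, TwdlD, TwdlP, Cpr65Ax1 and Cpr65Ax2, 34 before that of Cpr72Eb and 44 before that of Cpr72Ea. Over the window from 250 bases before to 50 after the start, the word AGAGCA was in 22 of 95 members (23.2%) and in 14.3% of all genes, and TATCGATA was in 1.05% and 9.37%. The other words had closer shares. AGGTCA was in 7.37% and 5.89%, GAGAG in 31.6% and 29.8%, CAGGTA in 5.26% and 6.25% and AACNGGTT in 5.26% and 4.62%. Tandem copies were counted separately, and no difference was tested. The members' start windows had a median of 44.9% G and C, against 37.9% for all genes.

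The other genes of cuticle formation did not share 1 pattern. Among the other structural cuticle genes (Lcp, Ccp84A, Edg, resilin and the like), 5 of 30 had an optimal summit (16.7%, and 17.8% ± 1.92 over the replicates). Of these 5, the neighbours Ccp84Ae, Ccp84Af, Ccp84Ag and Edg84A shared the same strongest summit, with a signal value of 339 at rank 2637. The other was resilin, which encodes the rubber-like protein (355). Among the genes for tanning and pigmentation 1 of 10 had a summit, ple, which encodes the tyrosine hydroxylase of the pathway (signal 236). Ddc, the dopa decarboxylase, had none. Both lists had shares near the 13.7% of the Cpr and Twdl genes, but the structural list is not independent of the members. Several Lcp65A genes shared pooled summits with genes of the Cpr65Au to Cpr65Az cluster, as Lcp65Af and Cpr65Av did at rank 14161. Edg78E, which lies between Cpr78Cb and Cpr78Cc, shared a pooled summit at rank 9030 with Cpr78Cb.

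The genes that build chitin and the apical matrix, and the regulators, had higher shares, before gene length is taken into account. Among the genes of chitin synthesis, modification and assembly, 11 of 19 had a summit (57.9%, and 63.2% ± 5.26 over the replicates), 7 of them within 500 bp of an own start. They include mmy, which makes the sugar precursor of chitin (signal 390), knk, which organises the fibres (252), and the chitin deacetylase genes serp (412) and Cda5 (619). Of the zona pellucida matrix genes 7 of 9 had one (77.8%, and 81.5% ± 6.42), among them pot (660), tyn (589), qsm (585) and dyl (529). Of the regulators 17 of 18 had one (94.4% in the optimal list and in each replicate). Among these were vri (1099), the nuclear receptor genes Hr3 (1065), Eip75B (991, with 30 summits) and EcR (981, with 21), and the epidermal factor grh (851). No optimal summit was found at br.

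Gene length differs between these lists, and genes of like length had 32.1% for the other structural genes, 55.7% for tanning, 54.7% for chitin, 66.1% for the matrix and 64.2% for the regulators. The chitin genes, at 57.9%, were thus near genes of like length. The matrix genes, 7 of 9, are too few to set apart from theirs. The median distance from an own start to the nearest optimal summit was 184 bp for the regulators, 414 bp for the matrix genes, 3601 bp for the chitin genes, 11846 bp for the other structural genes and 14777 bp for the tanning genes. A low share was not particular to cuticle genes. The chemosensory receptor genes (Or, Gr and Ir), which encode receptors for smell and taste, held one in 28 of 179 territories (15.6%, and 15.8% ± 1.96 over the replicates), against 42.8% at like length. No test of a difference between these lists was made.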

How the data were processed

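Per the labels, ChIP-seq used chromatin sonicated to 200 to 800 bp. The authors deposited peak lists with a signal value for each peak, on a scale that is not stated, and an offset that gives the summit. Per the notes deposited with the samples, peaks were called against a control, per replicate and on pooled alignments, and the optimal list passed a threshold of reproducibility. It is exactly the strongest part of the pooled list. Not given in the sources used here are the aligner, caller, versions and threshold, and the numbers of reads, so depth is unknown. Lists on dm3 were not used.

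Genes came from Ensembl release 115 and sequence from the RefSeq Release 6 genome. Counts were made with Python 3.11.15, pandas 2.3.3, numpy 2.4.6 and scipy 1.17.1, and the counting code was tested on simulated data. Genes of like length are all non-members weighted over 10 length classes. A summit was recovered where a replicate had one within 100 bp. The text names every member with an optimal summit, the 5 others with the best pooled rank, 2 without a pooled summit and each cluster of 3 or more. The members, lists and words were chosen with earlier results of these data known. The sequences printed were chosen after their values were seen, because the rule for them (summits within 500 bp of a member start, on arms that can be shown) found none. Of 90 genes in 5 lists, 86 were in the annotation. The words of 31 bases and the TATA search were also added then. Alternatives changed the territory, list, length classes, cluster gap and replicates.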

Additional observations from a re-analysis of the deposited data

How the results depend on the processing

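The members stayed below genes of like length under all 16 alternatives, with differences of -26.8 to -5.82 percentage points, and of 61 recomputed values 25 stayed close to the main value, 36 moved and 0 reversed. With a territory of 2 kb either side, 7 members had a summit (mean over replicates 6.67), with 7 distinct summits and a difference of -16.5 points. With 10 kb the counts were 27 members (24.3) and 34 summits. With the gene body alone they were 0 members (0.667) and 0 summits, and the difference was -5.82 points. With the stronger 50% of the optimal list, the difference was -15.1 points, with 7 summits, 7 loci with a summit and 0.949 summits per 100 kb of loci. As many peaks per replicate gave a mean of 7.0 members and all 30000 gave 48.3. With the strongest 15000 pooled peaks, 29 members, 40 summits, 5 members with a summit at an own start and 19 loci were counted, with 5.42 summits per 100 kb. A gap of 40 kb gave 2.50 per 100 kb. Giving each summit to the nearest start site alone left 6 members and a difference of -8.06 points. Optimal peaks recovered in both remaining replicates, leaving out each replicate in turn, gave differences of -19.5 to -17.3 points, 9 to 10 summits and 1.22 to 1.36 per 100 kb, by construction with fewer peaks. Chosen after seeing the data, classes of length and neighbouring genes together gave -17.8 points and loci of 1 member -10.2 points. No paired analysis was possible because there is 1 group. The depth is unknown, so a missing summit is not an absence of binding. No sample without the tag was analysed here.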
